A study of Homo sapiens with 12 samples.

Results

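The genes described here are 9 CXC chemokines and CX3CL1, which were chosen by name and account for 10 of the 39368 gene symbols counted in CAL27 and HSC3 cells. They fall into 5 neutrophil-attracting members (CXCL1, CXCL2, CXCL3, CXCL5 and CXCL8), 3 interferon-induced members (CXCL9, CXCL10 and CXCL11) and 2 members made as transmembrane proteins (CXCL16 and CX3CL1). CAL27 and HSC3 are established HPV-negative head and neck squamous cell carcinoma (HNSCC) lines. Both carried tet-MUC1shRNA, a vector from which an shRNA against MUC1 is made when doxycycline (DOX) is added. RNA-seq was performed on 3 libraries per group from CAL27 cells treated with vehicle (0.1% DMSO), CAL27 cells treated with 500 ng/mL DOX, HSC3 cells treated with vehicle and HSC3 cells treated with DOX, all for 7 days. All 4 groups carried the vector and had been selected in puromycin. The lines were grown in different media, DMEM for CAL27 and MEM for HSC3, so a difference between lines cannot be told apart from a difference between media. No DOX-treated library with a control shRNA was analysed here, so silencing of MUC1 cannot be told apart from other effects of DOX or of shRNA expression.

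Chemokines are small secreted proteins that direct the movement of leukocytes through G protein-coupled receptors. CXCL1, CXCL2, CXCL3, CXCL5 and CXCL8 (interleukin-8) carry a glutamate-leucine-arginine motif, bind CXCR2 and attract neutrophils, and their genes are classical targets of NF-κB. CXCL9, CXCL10 and CXCL11 lack this motif, bind CXCR3 on activated T cells and NK cells, and are induced by interferons. CXCL16, the ligand of CXCR6, and CX3CL1 (fractalkine), the ligand of CX3CR1, sit on a mucin-like stalk in the cell membrane and are shed by ADAM10 and ADAM17. Squamous carcinoma cells are a known source of several of these proteins.

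Total counts ran from 92866845 to 126328662 in CAL27 libraries and from 89730914 to 169065103 in HSC3 libraries. Counts were not treated as independent molecules, since by estimate several counts stood for 1 molecule. The estimates were 2.45 to 3.33 in CAL27, 4.18 to 7.43 in HSC3 with vehicle and 8.93 to 17.2 in HSC3 with DOX. They rest on the share of genes at 0, and variation between replicate libraries was not separated from them. A floor of 3 molecules therefore corresponded to 7.34 to 9.99 counts per library in CAL27, 12.5 to 22.3 in HSC3 with vehicle and 26.8 to 51.6 in HSC3 with DOX, and a gene at or under it was treated as not measured above zero. HSC3 DOX replicate 1 stood apart, with a chi-square per degree of freedom of 119 and 79.6 against the other DOX libraries, which differed from each other by 20.1. MUC1, the targeted gene, was at 55.3 ± 2.79 CPM in CAL27 and 1.76 ± 0.19 CPM in HSC3 with vehicle. This was a log2 difference of -4.98 in HSC3 (SE 0.15, adjusted p = 1.7e-13, edgeR quasi-likelihood test). In CAL27 MUC1 fell with DOX to 2.98 ± 0.25 CPM, by a log2 fold change of -4.21 (SE 0.067, adjusted p = 1.6e-19). The CAL27 level with DOX was thus still above the HSC3 level with vehicle. In HSC3 it had 162 to 196 counts with vehicle and 16 to 46 with DOX (adjusted p = 2.0e-04), where 2 of the 3 libraries were under the floor, so that it was at least 5.04-fold lower. The 10 squamous epithelial markers were above 1 CPM (counts scaled by library size and TMM factor) in all libraries. Their summed level was 6840 to 7118 CPM with vehicle and 3417 to 3669 CPM with DOX in CAL27, and 6729 to 7529 and 3261 to 3849 CPM in HSC3. The 12 leukocyte markers summed to 0.593 to 7.13 CPM in any library, and CD3E, LYZ, MPO and CD163 were at 0 in every HSC3 library. The part of these markers in the chemokine values was not tested. In such bulk samples, fewer cells that express a gene and less RNA per cell cannot be told apart.

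Of the 10 genes, 8 lie on chromosome 4 in a pair of clusters (GRCh38, GENCODE v44). The neutrophil-attracting genes are CXCL8 at chr4:73740519-73743716 and CXCL1 at chr4:73869393-73871308 on the plus strand, and CXCL5 at chr4:73995642-73998677, CXCL3 at chr4:74036589-74038807 and CXCL2 at chr4:74097040-74099196 on the minus strand. The interferon-induced genes are all on the minus strand, with CXCL9 at chr4:76001275-76007509, CXCL10 at chr4:76021118-76023497 and CXCL11 at chr4:76033682-76041415. CXCL16 lies at chr17:4733533-4739928 on the minus strand and CX3CL1 at chr16:57372477-57385044 on the plus strand. CXCL1, CXCL2 and CXCL3 are recent duplicates, so their reads could have been assigned to each other. Of all windows of 100 bases in their transcripts, 5.34% of those of CXCL2 also occurred in CXCL3, 3.27% of those of CXCL3 occurred in CXCL2, and none of those of CXCL1 occurred in another gene. With windows of 50 bases the shared portions were 4.57% for CXCL1, 13.4% for CXCL2 and 6.01% for CXCL3, and the read length is not given in the sources used here.

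The promoters are shown because CXCL1, CXCL2 and CXCL3, whose promoters hold the same NF-κB letters, differed in level, and to set them beside the interferon-induced genes. Sequences come from RefSeq (GRCh38.p14), which held 8 of the 10 members, and read 5′ to 3′ on the strand of the gene. The RefSeq starts of CXCL3 and CXCL11 differ from those of GENCODE, and the CXCL3 and CXCL11 stretches shown lie within the GENCODE gene coordinates given above. Capitals mark motif matches found on either strand in the 250 bases before the RefSeq start: the NF-κB consensus in CXCL1, CXCL2 and CXCL3, an AP-1 match (TGANTCA) in CXCL8, an interferon-stimulated response element (ISRE) in CXCL9 and CXCL10, further NF-κB matches in CXCL10, and AP-1 and NF-κB matches in CXCL11.
CXCL1, chr4:73869293-73869342, plus strand: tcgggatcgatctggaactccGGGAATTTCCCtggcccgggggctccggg
CXCL2, chr4:74099246-74099295, minus strand: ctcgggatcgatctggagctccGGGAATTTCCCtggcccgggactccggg
CXCL3, chr4:74038740-74038789, minus strand: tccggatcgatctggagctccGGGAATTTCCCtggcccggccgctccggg
CXCL8, chr4:73740419-73740508, plus strand: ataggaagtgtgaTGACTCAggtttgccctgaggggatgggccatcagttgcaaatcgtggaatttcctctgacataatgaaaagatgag
CXCL9, chr4:76007650-76007699, minus strand: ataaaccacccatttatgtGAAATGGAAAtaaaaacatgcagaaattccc
CXCL10, chr4:76023598-76023727, minus strand: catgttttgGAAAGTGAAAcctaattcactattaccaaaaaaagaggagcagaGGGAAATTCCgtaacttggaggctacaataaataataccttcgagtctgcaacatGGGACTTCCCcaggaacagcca
CXCL11, chr4:76036121-76036170, minus strand: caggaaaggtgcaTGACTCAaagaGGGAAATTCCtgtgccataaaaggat

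Over the 250 bases, CXCL1 and CXCL3 were 81.4% identical, CXCL2 and CXCL3 73.3% and CXCL1 and CXCL2 68%, against 42.8% for CXCL1 and CXCL8. The NF-κB consensus was searched as GGGRNNYYCC (R for A or G, Y for C or T), without mismatches. It was present in 6 of the 8 promoters (those of CXCL1, CXCL2, CXCL3, CXCL5, CXCL10 and CXCL11) and in 9.96% of 35116 RefSeq promoters. The CXCL8 stretch holds tggaatttcc, which differs from this consensus only at its first base and was not counted. A promoter without a match can thus hold a near match. The ISRE was present in CXCL9 and CXCL10, and in 3.02% of all promoters. A gamma-activated site (GAS, TTCNNNGAA) was present in CXCL5, where it overlaps the NF-κB match, and in CXCL11, and in 6.57% of all promoters. AP-1 letters were present in CXCL8 and CXCL11 and also in 6.57% of all promoters. These matches describe the letters in these windows, and binding was not measured.

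Without DOX, the lines differed in the levels of these chemokines. Neutrophil-attracting CXCL1, CXCL2, CXCL3 and CXCL8 were higher in HSC3 cells, and interferon-induced CXCL9, CXCL10 and CXCL11, CXCL16 and CX3CL1 were higher in CAL27 cells. All 9 members tested passed (edgeR quasi-likelihood test, adjusted p under 0.05), 4 of them higher and 5 lower in HSC3, where 30.6% and 32.3% of the 20694 genes tested passed in these directions. The largest difference among the neutrophil-attracting genes was in CXCL2, at 2.26, 2.17 and 2.34 CPM in CAL27 and 55.0, 43.7 and 47.9 CPM in HSC3, a log2 difference of 4.44 (SE 0.099, adjusted p = 9.2e-15). CXCL8 was higher by a log2 difference of 2.30 (SE 0.14, adjusted p = 1.1e-09), CXCL3 by 1.71 (SE 0.37, adjusted p = 8.4e-04) and CXCL1 by 1.09 (SE 0.10, adjusted p = 1.8e-07). CXCL10 was lower in HSC3 by a log2 difference of -3.78 (SE 0.41, adjusted p = 7.5e-07) and CXCL11 by -3.31 (SE 0.35, adjusted p = 1.7e-06). CXCL16 was lower by -0.86 (SE 0.063, adjusted p = 7.9e-09).

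CX3CL1 separated the lines most. It had 12186, 9546 and 10446 counts in the CAL27 vehicle libraries and 2, 4 and 12 in those of HSC3, which were all under the floor. Against that floor CX3CL1 was at least 469-fold lower in HSC3 and CXCL9 at least 3.40-fold lower. CXCL5, a neutrophil chemokine of epithelial cells, had 0 to 10 counts in all 12 libraries. It was under the floor in each and was not tested further.

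Levels between genes were compared as CPM per kilobase of annotated exon, merged over all GENCODE transcripts of a gene. The orders and shares depend on these lengths, which run from 1175 bases for CXCL10 to 5960 for CX3CL1. The annotation used for counting is not known. Without the length, CX3CL1 had a higher mean (87.5 CPM) than CXCL16 (83.5 CPM) in CAL27 with vehicle, with overlapping libraries. In CAL27 cells with vehicle the order was CXCL16 (29.9 ± 1.11, SD, n = 3), CXCL1 (23.0 ± 1.81), CXCL8 (15.2 ± 1.56), CX3CL1 (14.7 ± 0.20), CXCL10 (10.9 ± 0.92), CXCL11 (1.86 ± 0.036), CXCL2 (1.61 ± 0.062), CXCL3 (0.309 ± 0.081) and CXCL9 (0.230 ± 0.014). Neighbors in this order whose libraries overlapped were CXCL8 with CX3CL1 and CXCL3 with CXCL9. In HSC3 cells with vehicle the order was CXCL8 (75.2 ± 2.72), CXCL1 (49.1 ± 1.81), CXCL2 (35.0 ± 4.06), CXCL16 (16.5 ± 0.63), CXCL3 (1.01 ± 0.052), CXCL10 (0.793 ± 0.24) and CXCL11 (0.185 ± 0.019), with no overlap between neighbors. CXCL8 thus made up 42.3% of the summed per-kilobase level of the 10 genes in HSC3 cells and 15.6% in CAL27 cells.

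**Figure D1:**
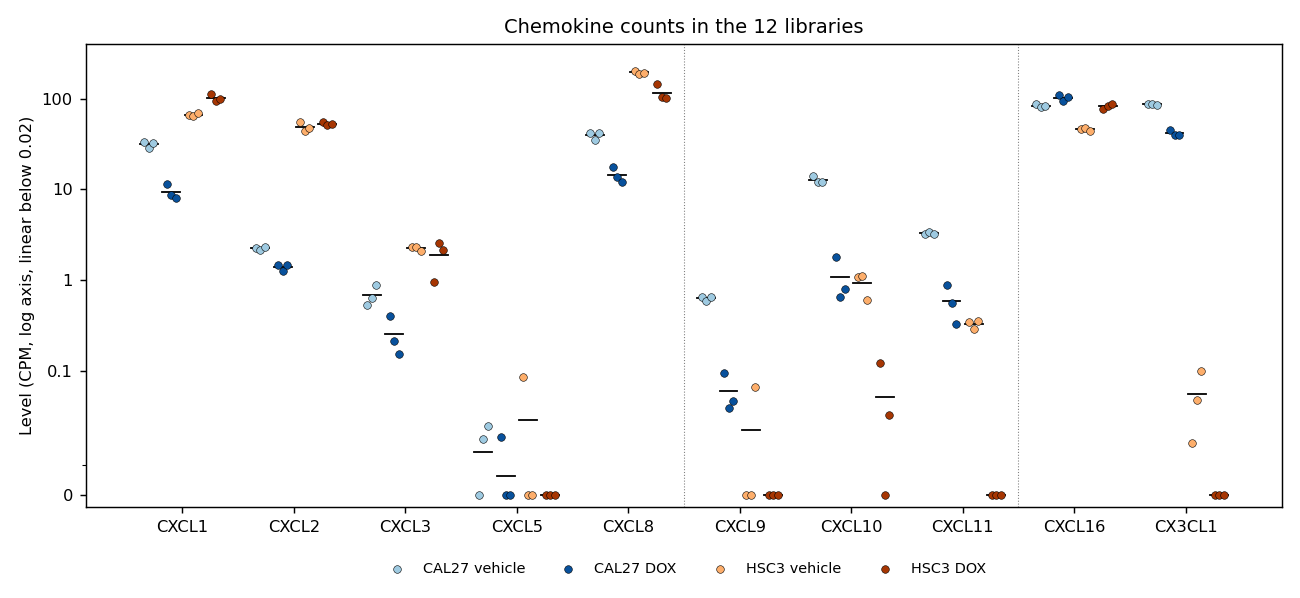
CPM of each chemokine in the 12 libraries (vertical axis logarithmic, linear below 0.02), with points for libraries and bars for group means of 3. CXCL2 sits near 2 CPM in CAL27 and between 43.7 and 55.0 CPM in HSC3, and CX3CL1 shows the opposite order.

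In CAL27 cells, DOX lowered every tested chemokine but CXCL16. Of the 9 members tested, 8 were lower and 1 was higher, and 7 were lower by over 2-fold. Of the 19239 genes tested, 21.8% were lower, 22.6% higher and 5.11% lower by over 2-fold. The vehicle and DOX libraries of all 9 members did not overlap, a pattern that 25.9% of genes showed in the lower and 25.9% in the higher direction. The median log2 fold change was -3.39 over the 3 interferon-induced members and -1.44 over the 4 neutrophil-attracting members tested, against -0.0052 over all genes.

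CXCL1, a strong CXCR2 ligand, was at 33.2, 28.5 and 32.2 CPM with vehicle and at 11.5, 8.75 and 8.06 CPM with DOX in CAL27 cells. All DOX libraries lay below all vehicle libraries, for a log2 fold change of -1.74 (SE 0.12, adjusted p = 5.1e-06). CXCL8 was at 42.1, 34.8 and 41.4 CPM with vehicle and at 17.7, 13.7 and 12.1 CPM with DOX. Its groups did not overlap either, and the log2 fold change was -1.45 (SE 0.16, adjusted p = 7.9e-04).

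CXCL2, the CAL27 neutrophil chemokine with the smallest fold change, moved from 2.26, 2.17 and 2.34 CPM to 1.49, 1.27 and 1.48 CPM. The log2 fold change was -0.68 (SE 0.14, adjusted p = 5.4e-04), without overlap. CXCL3 moved from 73, 70 and 107 counts to 42, 22 and 20 counts, for a log2 fold change of -1.43 (SE 0.34, adjusted p = 0.0015). Its groups were apart, at levels not far above the floor.

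The interferon-induced chemokines fell most. CXCL10, the IP-10 protein that recruits CXCR3-bearing T cells, was at 14.0, 12.2 and 12.1 CPM with vehicle and at 1.80, 0.659 and 0.807 CPM with DOX in CAL27. This was a log2 fold change of -3.57 (SE 0.35, adjusted p = 8.6e-04). Relative to the group mean, the DOX libraries spread more than those with vehicle (1.09 ± 0.62 against 12.8 ± 1.08 CPM). CXCL11, which binds CXCR3 and ACKR3, moved from 451, 366 and 396 counts to 94, 58 and 42 counts.

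For CXCL11 the log2 fold change was -2.50 (SE 0.24, adjusted p = 1.1e-06), and no library of 1 group reached the range of the other. CXCL9, which depends most strictly on IFN-γ, moved from 90, 64 and 80 counts to 10, 4 and 6 counts. Its fitted log2 fold change was -3.39 (SE 0.39, adjusted p = 4.6e-07), but 2 of the 3 DOX libraries were under the floor, so that the counts show a level at least 6.64-fold lower.

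The transmembrane chemokines went in opposite directions in CAL27. CX3CL1 was at 88.3, 88.1 and 86.2 CPM with vehicle and at 44.7, 40.1 and 39.4 CPM with DOX, a log2 fold change of -1.08 (SE 0.046, adjusted p = 2.6e-13). CXCL16 was at 87.0, 81.2 and 82.4 CPM with vehicle and at 109, 95.1 and 104 CPM with DOX. It was higher in all DOX libraries, by a log2 fold change of 0.29 (SE 0.045, adjusted p = 2.0e-05). The ratio of CXCL16 to CX3CL1 counts within a library was 0.954 ± 0.032 with vehicle and 2.48 ± 0.14 with DOX (SD, n = 3).

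The order of levels in CAL27 cells with DOX was CXCL16 (36.7 ± 2.48 CPM per kilobase), CX3CL1 (6.95 ± 0.48), CXCL1 (6.92 ± 1.33), CXCL8 (5.60 ± 1.12), CXCL2 (1.01 ± 0.088), CXCL10 (0.926 ± 0.53), CXCL11 (0.334 ± 0.16), CXCL3 (0.116 ± 0.058) and CXCL9 (0.0218 ± 0.011). CX3CL1, CXCL1 and CXCL8 overlapped with their neighbors, as did CXCL2 with CXCL10. CXCL16 made up 30.6% of the summed per-kilobase level of the 10 genes with vehicle and 62.7% with DOX.

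In HSC3 cells with DOX, CXCL1 and CXCL16 rose, CXCL8 and CXCL10 fell, and CXCL11 had no count left. Of the 7 members tested, 3 were lower, 2 were higher and 2 did not pass. The 2 lower by over 2-fold in the fit were CXCL10 and CXCL11, both under the floor with DOX. Among the 18021 genes tested, 15.4% were lower, 13% higher and 4.4% lower by over 2-fold. The libraries of 5 members did not overlap, 3 lower and 2 higher, as was so for 22.5% and 20.2% of genes. The 4 neutrophil-attracting members tested had a median log2 fold change of -0.075, against -0.0097 over all genes.

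CXCL1 rose in HSC3, from 65.8, 65.1 and 69.7 CPM with vehicle to 111, 94.5 and 100 CPM with DOX. All DOX libraries were above all vehicle libraries, and the log2 fold change was 0.60 (SE 0.074, adjusted p = 1.4e-04), or 0.54 without DOX replicate 1. CXCL8 fell, from 203, 189 and 192 CPM to 145, 104 and 101 CPM, a log2 fold change of -0.75 (SE 0.12, adjusted p = 6.9e-04). DOX replicate 1 was the highest of its group for both genes, and without it the log2 fold change of CXCL8 was -0.93.

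CXCL2 was at 55.0, 43.7 and 47.9 CPM with vehicle and at 54.9, 51.1 and 52.0 CPM with DOX. These libraries overlapped, and the log2 fold change of 0.10 (95% interval -0.076 to 0.28, adjusted p = 0.47) did not pass. CXCL3 had 265, 192 and 253 counts with vehicle and 141, 349 and 258 counts with DOX, a log2 fold change of -0.25 (95% interval -0.89 to 0.39, adjusted p = 0.64). The low value was DOX replicate 1, and without it the log2 fold change was 0.072 (adjusted p = 0.85).

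CXCL16 rose in HSC3 as well, from 46.2, 47.7 and 44.2 CPM to 77.6, 82.5 and 87.2 CPM, a log2 fold change of 0.84 (SE 0.074, adjusted p = 1.3e-05), or 0.88 without DOX replicate 1. It passed as higher in both lines, as 7.82% of genes tested in both did. CX3CL1 had no count in the HSC3 DOX libraries and was under the floor with vehicle, so that no change could be measured.

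CXCL10 had 124, 92 and 72 counts in HSC3 with vehicle and 18, 0 and 4 with DOX. All DOX libraries were under the floor, so the level was at least 2.68-fold lower (adjusted p = 0.0054, edgeR quasi-likelihood test). CXCL11 had 40, 24 and 42 counts with vehicle and 0 in each DOX library (adjusted p = 0.0028). The floor with DOX was above the vehicle level of CXCL11, so that no fold is given. When counts were divided by the counts per molecule, neither gene passed the filter on low counts. CXCL9, with 0, 0 and 8 counts with vehicle and 0 with DOX, was not tested.

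In HSC3 cells with DOX, CXCL1 (74.9 ± 6.25 CPM per kilobase) was first, before CXCL8 (45.0 ± 9.50), CXCL2 (37.7 ± 1.41), CXCL16 (29.5 ± 1.71) and CXCL3 (0.852 ± 0.38). CXCL8 and CXCL2 overlapped on this scale. In CPM without the length, CXCL8 had a higher mean (117 ± 24.6) than CXCL1 (102 ± 8.51), with overlapping libraries. CXCL8 had been first with vehicle, and its share of the summed per-kilobase level went from 42.3% to 24.0%, while that of CXCL1 went from 27.6% to 39.8%.

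**Figure D2:**
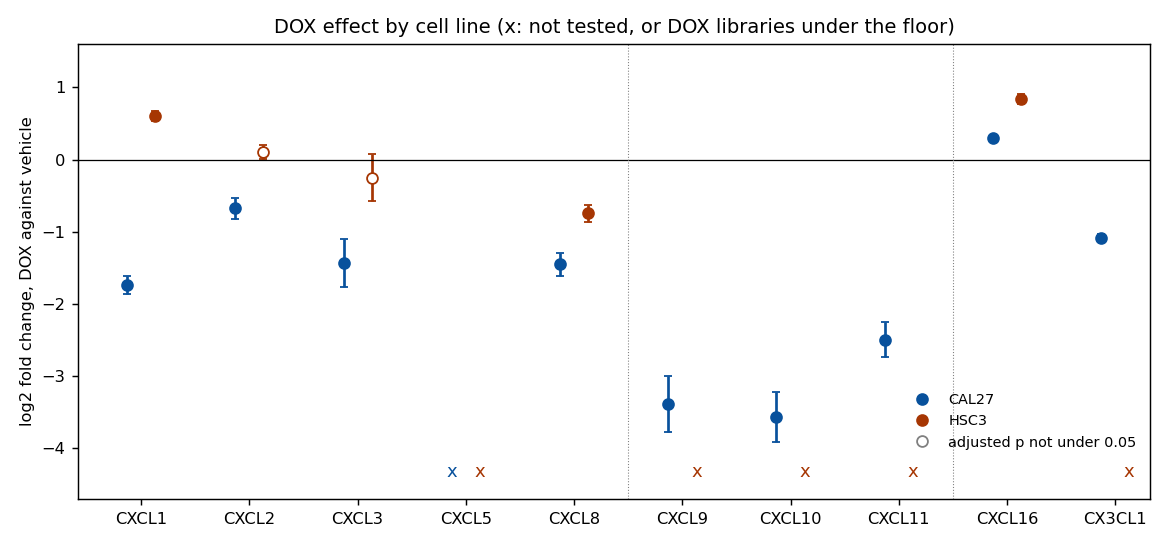
Log2 fold change with DOX against vehicle for each chemokine in CAL27 and HSC3 cells, with bars of 1 SE from the fit to 3 libraries per group and open points where the adjusted p was not under 0.05. CXCL1 lies at -1.74 in CAL27 and 0.60 in HSC3, and a cross marks genes that were not tested or whose DOX libraries were all under the floor.

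Whether the response to DOX differed between the lines was tested as an interaction in 1 fit of all 12 libraries. This could be read for the 5 members with a library above the floor in every group, which were CXCL1, CXCL2, CXCL3, CXCL8 and CXCL16. For 4 of the 5 the response was higher in HSC3 than in CAL27, and for none was it lower. Of all 9 members in the fit, 4 passed as higher and 2 as lower, CXCL11 (adjusted p = 0.0014) and CX3CL1 (adjusted p = 0.013). Both had no count in HSC3 with DOX, so the floor took out the members that passed as lower. Of the 20694 genes tested, without this floor, 8.25% passed as higher and 12.3% as lower. The median difference was 0.78 over the 5 members, 0.54 over the 9 and -0.022 over all genes. The lines also differed in MUC1 with vehicle, and the part of this in the responses was not tested.

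CXCL1 had the largest difference, with a log2 fold change 2.34 higher in HSC3 (SE 0.15, adjusted p = 8.5e-08). It was lower in CAL27 and higher in HSC3, as 1.19% of the 17164 genes tested in both lines were. The differences were 0.78 for CXCL2 (SE 0.13, adjusted p = 6.4e-04) and 0.54 for CXCL16 (SE 0.089, adjusted p = 4.2e-04). CXCL8 fell in both lines, as 8.62% of genes did, with a difference of 0.71 (SE 0.20, adjusted p = 0.018). This passed narrowly, and the adjusted p was 0.051 without CAL27 DOX library 6 and 0.054 with no filter on low counts.

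For CXCL3 the difference of 1.17 (SE 0.54, adjusted p = 0.15) did not pass. Without HSC3 DOX replicate 1 it was 1.53 (adjusted p = 0.010). CXCL9, CXCL10, CXCL11 and CX3CL1 were under the floor in all HSC3 DOX libraries, and a difference between lines was not measurable for them above the floor.

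Because a ratio of 2 genes within a library does not depend on the library total, the neutrophil chemokines were also compared with each other. CXCL1 counts per CXCL8 count were 0.795 ± 0.022 with vehicle and 0.651 ± 0.013 with DOX in CAL27, and 0.344 ± 0.019 and 0.890 ± 0.11 in HSC3 (SD, n = 3). CXCL2 counts per CXCL8 count moved up in both lines, from 0.0575 ± 0.0044 to 0.0997 ± 0.020 in CAL27 and from 0.251 ± 0.020 to 0.463 ± 0.073 in HSC3. CXCL2 counts per CXCL1 count went from 0.0723 ± 0.0040 to 0.153 ± 0.027 in CAL27 and from 0.731 ± 0.090 to 0.518 ± 0.024 in HSC3.

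In each of these ratios the vehicle and DOX libraries did not overlap, and the two-sided exact permutation test gave p = 0.1, the smallest that 3 libraries against 3 allow. CXCL10 fell relative to CXCL8 in CAL27, from 0.325 ± 0.030 to 0.0721 ± 0.027 counts per count, with the same exact p. CXCL10 counts per CXCL11 count were 3.86 ± 0.37 with vehicle and 1.88 ± 0.66 with DOX. The summed level of the neutrophil-attracting members was 73.7 ± 6.57 CPM with vehicle and 25.6 ± 4.88 CPM with DOX in CAL27, and 313 ± 12.6 and 273 ± 33.7 CPM in HSC3. That of the interferon-induced members was 16.7 ± 1.07 and 1.74 ± 0.91 CPM in CAL27, and 1.28 ± 0.23 CPM in HSC3 with vehicle, where all 3 were under the floor with DOX.

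**Figure D3:**
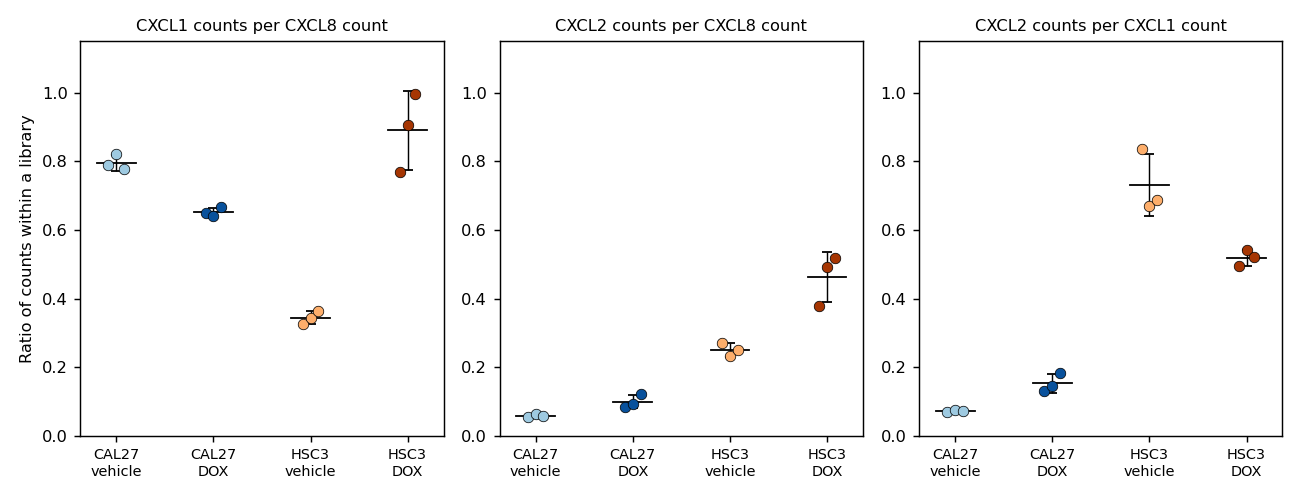
Ratios of counts of CXCL1, CXCL2 and CXCL8 within each library, with points for libraries and bars for the mean ± SD of 3. The ratio of CXCL1 to CXCL8 moves from 0.795 to 0.651 in CAL27 and from 0.344 to 0.890 in HSC3.

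Genes that share the clusters but not the chemokine function were compared next. In the interferon-induced cluster with 100 kb on either side, NAAA, a lysosomal amidase, SDAD1, a ribosome biogenesis factor, and NUP54, a nuclear pore protein, were tested in CAL27. Their log2 fold changes were 0.38 (SE 0.093, adjusted p = 0.0024), 0.14 (SE 0.042, adjusted p = 0.010) and 0.20 (SE 0.045, adjusted p = 9.4e-04), all opposite to CXCL9, CXCL10 and CXCL11 between them. In HSC3, SDAD1 was higher (0.22, adjusted p = 0.024), and NAAA (0.0014, adjusted p = 0.997) and NUP54 (-0.034, adjusted p = 0.81) did not pass. CXCL10 and CXCL11 lie in introns of ART3, on the opposite strand, and ART3 was at or under the floor in most HSC3 libraries and too low to be tested in CAL27.

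Beside the neutrophil-attracting cluster, MTHFD2L, a mitochondrial folate enzyme next to CXCL2, had a log2 fold change of 0.061 (SE 0.088, adjusted p = 0.62) in CAL27 and -0.45 (SE 0.098, adjusted p = 0.0049) in HSC3. CXCL1 and CXCL2 thus moved in CAL27 where this neighbor did not pass, and in HSC3 MTHFD2L fell while CXCL1 rose.

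**Figure D4:**
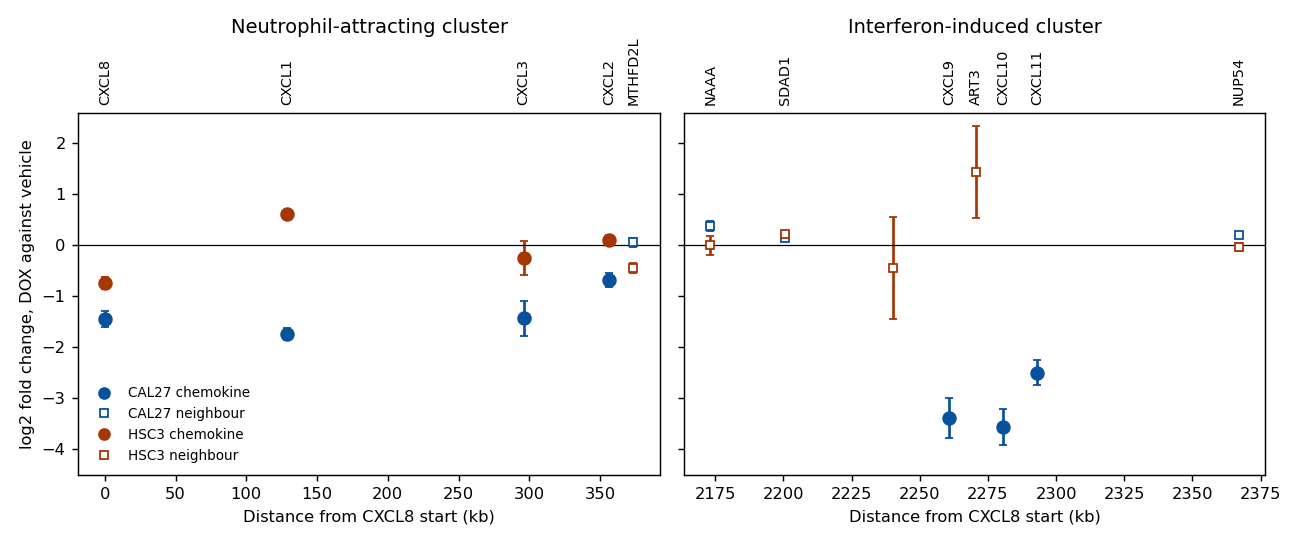
Log2 fold change with DOX (± SE) against distance from the start of CXCL8 in kb, for chemokines (filled circles) and other tested genes (open squares) of the clusters. The interferon-induced chemokines lie between -3.57 and -2.50 in CAL27 while flanking NAAA, SDAD1 and NUP54 lie between 0.14 and 0.38. Chemokines under the floor in HSC3 are not drawn.

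Genes of the NF-κB and interferon pathways were described beside the chemokines, and some genes stand in more than 1 list. For each list, the shares of all genes tested were 21.8% lower and 22.6% higher in CAL27, 15.4% and 13% in HSC3, and, in the interaction, 8.25% higher and 12.3% lower in HSC3. Of 32 genes of the NF-κB pathway, 22 were lower and 4 higher in CAL27 (median log2 fold change -0.42), and 5 were lower and 5 higher in HSC3 (median -0.024). In the interaction, 12 of the 32 were higher in HSC3 and 2 lower. IL1RAP, a subunit of the IL-1 receptor, fell in both lines, by a log2 fold change of -1.17 (adjusted p = 2.6e-14) in CAL27 and -1.34 (adjusted p = 8.9e-07) in HSC3. BIRC3, an NF-κB target that feeds back on the pathway, fell in CAL27 (-1.01, adjusted p = 1.6e-11) and rose in HSC3 (0.93, adjusted p = 1.8e-04), as CXCL1 did.

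TLR3, a sensor of double-stranded RNA, fell by a log2 fold change of -1.23 (adjusted p = 3.6e-11) in CAL27 and -0.64 (adjusted p = 0.0026) in HSC3. TLR2, a sensor of bacterial lipoproteins, fell by -0.80 (adjusted p = 1.5e-07) and -1.20 (adjusted p = 7.9e-05). Of 25 other inflammatory NF-κB targets, 20 were tested in CAL27, with 15 lower and 3 higher (median -0.76). In HSC3, 23 were tested, with 8 lower and 2 higher (median -0.22). The monocyte chemokine CCL2 was at 230 ± 13.4 CPM with vehicle and 32.4 ± 7.42 CPM with DOX in CAL27, a log2 fold change of -2.83 (adjusted p = 2.7e-04), and had at most 20 counts with DOX in HSC3, under the floor.

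CCL20, a ligand of CCR6, also fell in CAL27, by a log2 fold change of -1.85 (adjusted p = 2.1e-08), and did not pass in HSC3 (0.30, adjusted p = 0.45). The acute-phase gene SAA2 fell in CAL27 by -1.99 (adjusted p = 9.1e-06) and had 19 to 25 counts with DOX in HSC3, under the floor. LCN2, an iron-siderophore binding protein, fell by -0.86 (adjusted p = 7.7e-04) in CAL27 and -2.97 (adjusted p = 7.8e-06) in HSC3. IL6, a cytokine of the acute-phase response, rose by 1.13 (adjusted p = 3.7e-08) in CAL27 and 1.55 (adjusted p = 5.4e-04) in HSC3, there from 2.07 ± 0.69 to 6.11 ± 0.70 CPM.

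The targets of IFN-γ were lower in CAL27, like CXCL9, CXCL10 and CXCL11, in 21 of 22 genes, and 1 was higher (median -1.01). In HSC3, 21 were tested, with 8 lower and 2 higher (median -0.27, or -0.19 with genes under the floor set to their bound), and in the interaction 12 were higher in HSC3 and 2 lower. WARS1, tryptophanyl-tRNA synthetase, fell in both lines, by -1.85 (adjusted p = 1.0e-16) in CAL27 and -2.24 (adjusted p = 1.4e-08) in HSC3. The guanylate-binding protein GBP4 fell by -2.19 (adjusted p = 0.0018) and -1.52 (adjusted p = 3.1e-04). HLA-DRA, an MHC class II chain, fell in CAL27 by -1.86 (adjusted p = 1.9e-09), and also passed as lower in HSC3 (adjusted p = 0.020), at 28 to 56 counts with DOX, near the floor. CD74, the invariant chain, fell by -1.59 (adjusted p = 1.3e-04) in CAL27 and -0.93 (adjusted p = 2.7e-06) in HSC3.

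Of 20 genes of interferon signaling, 12 were lower and 2 higher in CAL27 (median -0.23). In HSC3, 19 were tested, with 6 lower and 2 higher (median -0.28, or -0.22 with genes under the floor at their bound). IRF7, a factor that amplifies interferon responses, fell by -1.84 (adjusted p = 3.2e-11) in CAL27 and -0.94 (adjusted p = 0.016) in HSC3. IFNGR1, a chain of the IFN-γ receptor, fell by -1.20 (adjusted p = 8.8e-14) and -1.44 (adjusted p = 4.5e-06), and SOCS3, an inhibitor of cytokine signaling, rose by 0.35 (adjusted p = 2.5e-04) and 1.21 (adjusted p = 2.4e-06). SOCS1, another inhibitor, and USP18, which silences the type I receptor, fell in CAL27 by -1.52 (adjusted p = 3.1e-06) and -1.29 (adjusted p = 4.7e-10). Neither passed in HSC3 (adjusted p = 0.51 and 0.59).

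**Figure D5:**
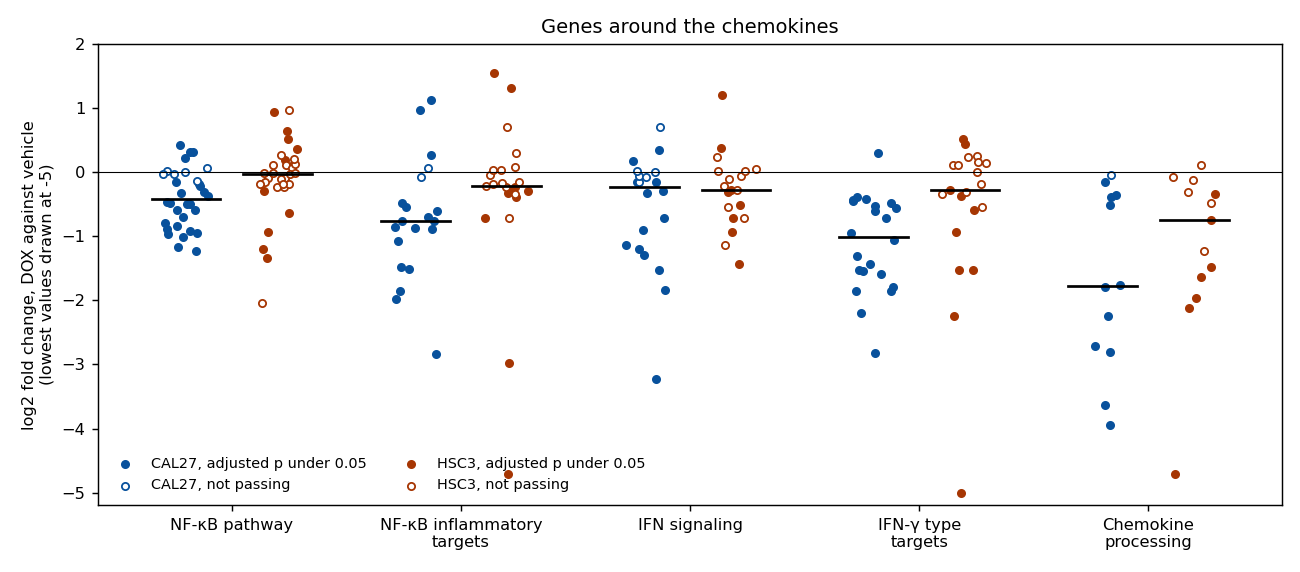
Log2 fold change with DOX for genes of 5 lists around the chemokines, with 1 point per gene, filled where the adjusted p was under 0.05, and a bar at the median. The medians of NF-κB pathway genes are -0.42 in CAL27 and -0.024 in HSC3, and those of IFN-γ targets -1.01 and -0.27. Genes under the floor with DOX are drawn at fitted values, except GBP5 in HSC3 (fitted -7.52), which is drawn at the lower limit of the values shown.

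The proteases that trim or shed chemokines had a lower median in CAL27 than the NF-κB and interferon lists. Of the 12 tested there, 11 were lower and none higher (median -1.78), and of the 13 tested in HSC3, 7 were lower and none higher (median -0.75, or -0.48 with genes under the floor at their bound). ADAM10 and ADAM17, which shed CXCL16 and CX3CL1, stood at the small end, with log2 fold changes of -0.050 (adjusted p = 0.31) and -0.15 (adjusted p = 0.0067) in CAL27, and neither passed in HSC3 (adjusted p = 0.17 and 0.44). MMP12, macrophage elastase, fell in CAL27 by -3.95 (SE 0.10, adjusted p = 4.3e-16), and MMP3, stromelysin-1, by -2.81 (SE 0.18, adjusted p = 1.2e-10). Neither passed in HSC3 (adjusted p = 0.66 and 0.21).

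MMP1, interstitial collagenase, fell by -3.63 (SE 0.24, adjusted p = 3.4e-04) in CAL27 and -1.63 (SE 0.061, adjusted p = 6.5e-08) in HSC3. MMP2, gelatinase A, fell by -1.80 (adjusted p = 1.8e-08) in CAL27 and -2.13 (SE 0.12, adjusted p = 7.5e-07) in HSC3. MMP9, gelatinase B, which trims CXCL8, had 2.58 ± 0.089 CPM with vehicle in HSC3 and was under the floor with DOX, at least 7.41-fold lower (adjusted p = 3.9e-04).

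Among the receptors, CXCR1 and CXCR3 had 0 to 8 counts in any library, and CX3CR1 had no count in CAL27. CXCR2 moved from 1.52 ± 0.33 to 0.827 ± 0.27 CPM in CAL27, a log2 fold change of -0.89 (SE 0.22, adjusted p = 0.0028), and did not pass in HSC3 (adjusted p = 0.18). CXCR6, the receptor of CXCL16, did not pass in CAL27 (adjusted p = 0.45) or HSC3 (adjusted p = 0.98). ACKR3, the atypical receptor that takes up CXCL11 and CXCL12, was the receptor with the highest counts. It fell from 49.6 ± 2.96 to 15.6 ± 1.23 CPM in CAL27 (log2 fold change -1.67, SE 0.058, adjusted p = 1.6e-14) and from 14.4 ± 1.89 to 3.89 ± 0.15 CPM in HSC3 (-1.89, SE 0.13, adjusted p = 2.7e-06).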

How the data were processed

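The authors deposited 1 table of raw counts per cell line, with whole-number counts of reads for 39368 gene symbols. Total RNA from triplicate cultures was made into stranded poly(A) libraries. The submitters' processing notes name FastQC 0.11.9, STAR 2.7.9a, Subread 2.0.1 with featureCounts and GRCh38, which the study's methods write with a release tag. The annotation counted, the strand setting and the handling of duplicated and multiply mapped reads are not given in the sources used here.

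The counts were analysed in R 4.3.3 with edgeR 4.0.16 (TMM factors; low counts removed by filterByExpr, its minima set at 10 per library and 15 in all; robust glmQLFit, glmQLFTest, two-sided, Benjamini-Hochberg adjustment over all genes tested). Each line was fitted alone, and the interaction and the vehicle levels came from 1 fit of 12 libraries. A gene passed at an adjusted p under 0.05. CPM were TMM-normalized over all 12 libraries and are given as mean ± SD. To estimate counts per molecule, the share of genes at 0 was taken among those expected at 8 to 16 counts. Libraries simulated at 3, 6, 9 and 15 gave estimates of at most 4.13, 7.63, 11.0 and 17.4, so the floors are somewhat high. In simulated counts, 200 genes were changed by a log2 fold change of 1.5. Of these 100% were recovered in CAL27 (19191 genes), 98.5% in HSC3 (18111 genes) and 98% in the interaction (19932 genes). Unchanged genes that passed numbered 12, 7 and 6. The simulated counts had a single fixed dispersion, with no repeated counts per molecule and no outlying library, and genes with low counts were not changed. Recovery of smaller changes, or of genes near the floor, was not tested.

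The members and the gene lists were chosen with earlier results of these data known. All members are named, and from each list the 3 genes per line with the largest absolute log2 fold change among those that passed and averaged 0 or more in log2 CPM. Other CXC chemokines, receptors, cluster neighbors, ADAM10 and ADAM17 are named for their position or role. In the CAL27 table the DOX columns are numbered 4 to 6 and carry no replicate number of the samples. Alternatives were DESeq2's size factors, library totals, no filter on low counts, the DESeq2 1.42.0 test, counts per molecule, 1 fit of 12 libraries, other thresholds, a replicate block and each library left out. Intervals cover counting error and the variation between the replicate libraries in the fit. Floors rest on the estimated counts per molecule. Neither covers other sources of error.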

Additional observations from a re-analysis of the deposited data

Results flagged for a closer look

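In 4 of the 5 chemokines with a library above the floor in every group, the response to DOX was higher in HSC3 than in CAL27 cells. These calls came from the interaction term of the edgeR fit of all 12 libraries. Of the 20694 genes tested, without this floor, 8.25% passed as higher and 12.3% as lower. CXCL11 and CX3CL1 passed as lower but had no count in HSC3 with DOX. The difference in log2 fold change, HSC3 minus CAL27, was 2.34 for CXCL1 (adjusted p = 8.5e-08), 0.78 for CXCL2 (adjusted p = 6.4e-04), 0.71 for CXCL8 (adjusted p = 0.018) and 0.54 for CXCL16 (adjusted p = 4.2e-04). The difference in CXCL8 passed narrowly and fell short under some alternatives. In CXCL1 every DOX library was below every vehicle library in CAL27 and above in HSC3.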

How the results depend on the processing

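Over the alternatives 444 values of single members kept their direction and their side of the threshold, 2 moved past it, 2 fell short of it and 1 reversed. CXCL3 in HSC3 reversed, to 0.072 without HSC3 DOX replicate 1, and ran from -0.55 to 0.072 over libraries left out in turn. The difference between lines in CXCL3 passed under counts per molecule (1.28, adjusted p = 0.040) and without HSC3 DOX replicate 1 (1.53), and that in CXCL8 did not pass with no filter on low counts (0.72, adjusted p = 0.054) or without CAL27 DOX library 6 (0.61, adjusted p = 0.051). Counts of members stayed within 1.5 times in 177 cases. Under counts per molecule, members lower in HSC3 went from 3 to 1, and those lower by over 2-fold from 2 to 0, because CXCL10 and CXCL11 no longer passed the filter. With a fold threshold of 1.5 in place of 2, the members higher by more than the threshold in HSC3 went from 0 to 2, CXCL1 and CXCL16. The HSC3 vehicle and DOX libraries share replicate numbers. Deviations of libraries with the same number correlated by -0.195, 0.337 and -0.328, and those with different numbers by -0.428 to 0.469. With 3 libraries per group, this cannot show whether libraries with the same number were paired. With the replicate block, CXCL1 in HSC3 had a log2 fold change of 0.60 (adjusted p = 7.0e-04) and CXCL10 an adjusted p of 0.0091, and no call on a member changed. No paired analysis was possible within CAL27 because its DOX columns carry no replicate number. The floor, which the counts per molecule set, limits CXCL5 in both lines and CXCL9, CXCL10, CXCL11 and CX3CL1 in HSC3.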

Other observations

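Of the other CXC chemokines, CXCL14, which is made by resting epithelium, fell in both lines. It had 300 to 446 counts with vehicle and 56 to 78 with DOX in CAL27, a log2 fold change of -2.47 (SE 0.18, adjusted p = 9.8e-10), and was at least 5.96-fold lower in HSC3 (adjusted p = 0.0044), where 2 of the 3 DOX libraries were under the floor. CXCL17, a mucosal chemokine, did not pass in CAL27 (-0.16, adjusted p = 0.69). CXCL6, a further CXCR2 ligand in the cluster with CXCL8, was at 0 in CAL27 and had 14 to 46 counts with vehicle and 0 to 4 with DOX in HSC3. PPBP, PF4 and CXCL12 had no count in any library.

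Of 10 genes that set the decay of chemokine transcripts, 4 were lower and 3 higher in CAL27, and 2 were lower and 2 higher in HSC3. The shares of all genes tested were 21.8% lower and 22.6% higher in CAL27, and 15.4% and 13% in HSC3. The median log2 fold changes of the list were -0.092 in CAL27 and 0.064 in HSC3. MAPKAPK2, the kinase that stabilizes such transcripts, fell in both lines, by a log2 fold change of -1.25 (adjusted p = 2.3e-14) in CAL27 and -1.32 (adjusted p = 2.6e-07) in HSC3. ZC3H12A, the endonuclease Regnase-1, fell in CAL27 by -0.89 (adjusted p = 6.5e-10) and did not pass in HSC3 (0.26, adjusted p = 0.0505). ZFP36L2, an AU-rich element binding protein, fell in HSC3 by -0.32 (adjusted p = 0.0062) and did not pass in CAL27 (-0.13, adjusted p = 0.10). DUSP1, a MAP kinase phosphatase, rose in both, by 0.40 (adjusted p = 0.011) and 0.56 (adjusted p = 0.012).

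The genes most like a member were sought among 8598 genes, by the root mean square difference in log2 CPM over the 12 libraries after centering each line on its vehicle mean. The profile of CXCL1 was nearest to those of FOXQ1 (0.195) and BCL11A (0.20), against a median of 0.977 over all genes compared. The log2 fold changes of FOXQ1 were -1.51 in CAL27 and 0.79 in HSC3. CXCL2 was nearest to KDM5B (0.0876, median 0.428), CXCL8 to GPNMB (0.150, median 0.880), CXCL3 to IFI35 (0.337, median 0.897) and CXCL16 to DUSP3 (0.0566, median 0.459). CXCL10 was nearest to MX1 (1.41, median 2.92), a more distant match.

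The fibroblast markers summed to 13.4 to 14.1 CPM with vehicle and 10.2 to 10.6 CPM with DOX in CAL27, and to 4.2 to 5.05 and 5.97 to 9.34 CPM in HSC3, with COL3A1 at 0 in all libraries. The endothelial markers summed to 15.05 to 15.4 and 8.89 to 12.2 CPM in CAL27, most of it CDH5, and to at most 0.821 CPM in HSC3. The leukocyte markers went from 6.51 to 7.13 CPM down to 4.6 to 5.59 CPM with DOX in CAL27 and from 3.04 to 3.56 CPM down to 0.593 to 2.14 CPM in HSC3. The part of these genes in the chemokine values was not tested.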
